A study of Mus musculus with 4 samples.

Results

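The genes described here are 8 Toll-like receptor genes (Tlr1, Tlr2, Tlr3, Tlr4, Tlr5, Tlr6, Tlr7 and Tlr9) and the adaptor genes Myd88 and Ticam1. Members were taken by name: every non-control probe of the 4 scanner files whose gene name is among these 10, which gave 17 of 56605 probes and 10 of 24814 genes with a probe. Total RNA of 2 untreated mouse lines was hybridised to one-colour Agilent arrays, 2 arrays per line, which limits the precision. GC-1 is a line of spermatogonial origin made with SV40 large T antigen. GC-2 is a line of spermatocyte origin that carries large T antigen together with a temperature-sensitive p53. Both grew in serum-supplemented high-glucose medium and were collected near confluence. Each is a single immortalised line, so the comparison is between these 2 lines and not between germ cell stages. The titles number the replicates without saying whether they were separate cultures, so p-values reflect how far these arrays differ, a spread that may be technical.

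Toll-like receptors are membrane proteins of innate immunity that recognise microbial molecules. Those at the cell surface bind bacterial lipopeptides, lipopolysaccharide or flagellin, and those in endosomes bind nucleic acids. All signal through intracellular TIR domains to adaptor proteins, which lead to NF-kB and interferon regulatory factors and to the expression of cytokines, chemokines and interferons. In the testis these receptors have been studied in Sertoli, Leydig and germ cells as part of the local defence.

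Arrays of the same line resembled each other more than arrays of different lines: over 30314 probes above background on every array, Pearson's r across probes was 0.9887 and 0.9901 within the lines and 0.896 to 0.9097 between them. The GC-2 arrays were dimmer, and the lines lay in different rows of the slide, so line and slide position cannot be told apart. Each array's 75th percentile of processed signal stood at 666 and 693 in GC-1 against 416 and 199.9 in GC-2. Of 12 germ cell marker genes, 7 (Dazl, Kit, Stra8, Sycp1, Sycp3, Mael and Piwil1) were not well above background on both arrays of either line, so the germ cell label rests on few of these markers here.

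The probes that carry the results are shown by 30 of their 60 bases, as the scanner files give them. Tlr4 and Tlr3 are included because probes of the same gene gave different results, and Tlr5 because its called probe has only a bound in GC-1. Tlr1 and Tlr6 are included because their probes fell together, and Tlr7 because its probe had the lowest adjusted p. Positions are on mm9. The files give each probe's first base within its transcript, and whether that base lies in a coding exon or a UTR was not annotated here. Capitals mark AATAAA, the canonical polyadenylation signal, where a probe holds it.
Tlr1 A_51_P495581 (chr5:65316115-65316174, minus strand, base 2465 of its transcript): agcatccattaatgttaagctggttaacca
Tlr1 A_66_P137861 (chr5:65315994-65316053, minus strand, base 2886): cagcaagaacctaaaaatggttctgacttt
Tlr6 A_52_P117393 (chr5:65344365-65344424, minus strand, base 2509): atgtgaaaacttgaaacttgggtttctaac
Tlr4 A_51_P300806 (chr4:66503724-66503782, plus strand, base 3739): tcagaaaagtatggaggtttcttggtaaac
Tlr4 A_55_P2603039 (chr4:66500344-66500403, plus strand, base 359): actaacaagtttagagaatctggtggctgt
Tlr4 A_55_P2714823 (chr4:66591199-66591258, plus strand, base 1746 of another transcript): ttgagtttctgccttgacttcccaagtgat
Tlr5 A_66_P111367 (chr1:184905770-184905829, plus strand, base 2793): aactctccggatgcattctaaaggaagaaa
Tlr3 A_52_P85174 (chr8:46481729-46481788, minus strand, base 3557): agacgtttatagAATAAAagataattgctt
Tlr3 A_55_P2921249 (chr8:46495198-46495257, minus strand, base 174): acgcacctgttctctatctgggaagttaaa
Tlr7 A_55_P2050932 (chrX:163742863-163742922, minus strand, base 3878): agagttcaatgaAATAAAagcccagagaac

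AATAAA was present in 3 of the 17 member probes (17.65%) and in 9.77% of all 56605 probes. Its holders were the Tlr2 probe, Tlr3 A_52_P85174 and Tlr7 A_55_P2050932. No run longer than 8 bases was shared between probes of different members. Other tested probes include Tlr2 A_51_P452629 (chr3:83640344-83640403), Tlr9 A_51_P432563 (chr9:106128979-106129038), Myd88 A_52_P282762 (chr9:119245322-119245381) and Ticam1 A_51_P294020 (chr17:56409265-56409324).

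Promoters are shown for Tlr1 and Tlr6, neighbours that were both lower in GC-2, and for Tlr2, Tlr3 and Myd88, which hold an NF-kB or interferon response match. The latter 3 were higher in GC-2, though Tlr2 and Myd88 turn below 0 when the arrays are scaled to the E1A spike-in probes. Tlr5, Tlr9 and Ticam1 were called higher too and also have an entry, which is not printed. The table used holds promoters of 8 members in 10 entries and was matched by symbol. Each is the 250 bases before the RefSeq start, on GRCm38.p6. Both strands were searched for GAGGAA (the core of PU.1-type sites), TGANTCA (AP-1), GAAANNGAAA (interferon response), TATAAA and the NF-kB motif. Capitals mark all of these but TATAAA.
Tlr1 (chr5:64933559-64933808, minus strand): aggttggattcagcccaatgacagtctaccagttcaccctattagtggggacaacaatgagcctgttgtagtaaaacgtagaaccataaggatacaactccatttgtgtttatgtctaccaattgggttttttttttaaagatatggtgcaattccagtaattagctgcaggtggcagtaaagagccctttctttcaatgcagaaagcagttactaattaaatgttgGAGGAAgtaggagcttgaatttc
Tlr6 (chr5:64959167-64959416, minus strand): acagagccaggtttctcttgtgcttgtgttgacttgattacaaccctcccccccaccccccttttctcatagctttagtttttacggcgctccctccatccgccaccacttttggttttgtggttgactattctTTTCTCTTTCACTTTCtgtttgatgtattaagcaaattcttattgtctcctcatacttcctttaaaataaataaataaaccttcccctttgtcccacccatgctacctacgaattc
Tlr2 (chr3:83841609-83841858, minus strand): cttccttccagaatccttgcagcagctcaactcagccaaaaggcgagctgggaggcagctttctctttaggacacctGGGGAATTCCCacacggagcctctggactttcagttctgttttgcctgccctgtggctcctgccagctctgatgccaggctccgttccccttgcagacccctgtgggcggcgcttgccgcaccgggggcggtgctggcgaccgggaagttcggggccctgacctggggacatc
Tlr3 (chr8:45410381-45410630, minus strand): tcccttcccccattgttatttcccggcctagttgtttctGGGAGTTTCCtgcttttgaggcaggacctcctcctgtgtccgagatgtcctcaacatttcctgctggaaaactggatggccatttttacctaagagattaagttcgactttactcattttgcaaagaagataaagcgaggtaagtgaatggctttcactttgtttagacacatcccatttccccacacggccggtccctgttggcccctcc
Myd88 (chr9:119340019-119340268, minus strand): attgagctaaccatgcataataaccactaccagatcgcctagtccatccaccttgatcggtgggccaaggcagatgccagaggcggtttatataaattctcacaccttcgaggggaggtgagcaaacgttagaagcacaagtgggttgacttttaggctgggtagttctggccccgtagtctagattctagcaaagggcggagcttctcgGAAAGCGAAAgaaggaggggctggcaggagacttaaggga

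The Tlr2 promoter held 2 overlapping NF-kB matches, whose first bases lie 173 and 172 bases before the start, and the Tlr3 promoter held 1 at 211. NF-kB matches were present in 7.3% of 32851 promoters of the same length. GAAANNGAAA, found in 3.0% of promoters, matched once in Myd88 at 40 bases before the start. In this Tlr6 entry it matched as 2 overlapping sites at 116 and 110. GAGGAA, found in 23.3% of promoters, matched in this Tlr1 entry at 23, in Tlr9 at 112 and in Ticam1 at 30. TGANTCA, found in 6.7%, matched in Tlr9 at 58. TATAAA, found in 12.4%, matched in Myd88 and in the other Tlr6 entry. None of the 5 motifs matched in the Tlr5 entry or in the other Tlr1 entry. These matches describe the letters in the window and were not tied to the changes below.

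Most members were measurable in both lines, and they did not move in 1 direction. Of the 17 probes, 15 could be tested, meaning that in 1 line or both the 2 arrays showed the probe well above background. Changes are given as GC-2 minus GC-1 on the log2 scale, after each array was scaled to its own 75th percentile. A probe was called higher or lower when limma's Benjamini-Hochberg adjusted p, taken over all 36692 tested probes, was under 0.05. Higher in GC-2 were 7 of 15 probes (46.7%), against 24.1% of all tested probes, and lower were 3 (20%), against 21.6% of all. In either direction 66.7% of the member probes were called, against 45.7% of all. The median change of the member probes was 0.99, against 0.07 for all tested probes. The higher probes belonged to Tlr2, Tlr3, Tlr5, Tlr7, Tlr9, Myd88 and Ticam1, and the lower ones to Tlr1, Tlr4 and Tlr6. The called Tlr5 probe entered the test only through GC-2, and those of Tlr1 and Tlr6 only through GC-1. In each case that was the line where the probe was higher, so these calls add no support. The calls were also made with no filter on dim probes, but these probes leave the test when all 4 arrays must be above background. On 10 of the 15 probes both GC-2 arrays lay above both GC-1 arrays, on 4 they lay below, and on 1 the lines overlapped. The share of all tested probes with such a separation is not given here, so these counts are no result about the members.

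These counts depended on single arrays. Of the 10 calls, 5 were made without GC-1 replicate 1 and 6 without GC-2 replicate 2. The 7 higher calls became 4 without GC-1 replicate 1, 4 without GC-2 replicate 1 and 3 without GC-2 replicate 2. The 3 lower calls became 1 without GC-1 replicate 1. They depended on the scale too. The 10 E1A spike-in control probes were brighter relative to the 75th percentile on the GC-2 arrays, so scaling to them takes 1.86 log2 off every change. On that scale 2 member probes were higher (Tlr5 A_66_P111367 and Tlr7 A_55_P2050932) and 7 were lower, while the median of all tested probes moved from 0.07 to -1.79. Under the other scalings that median moved to 0.50 with normexp background correction, -0.25 with median centring and 0.27 with the percentile taken over probes above background on all 4 arrays. Which scale fits these RNAs was not tested.

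**Figure D1:**
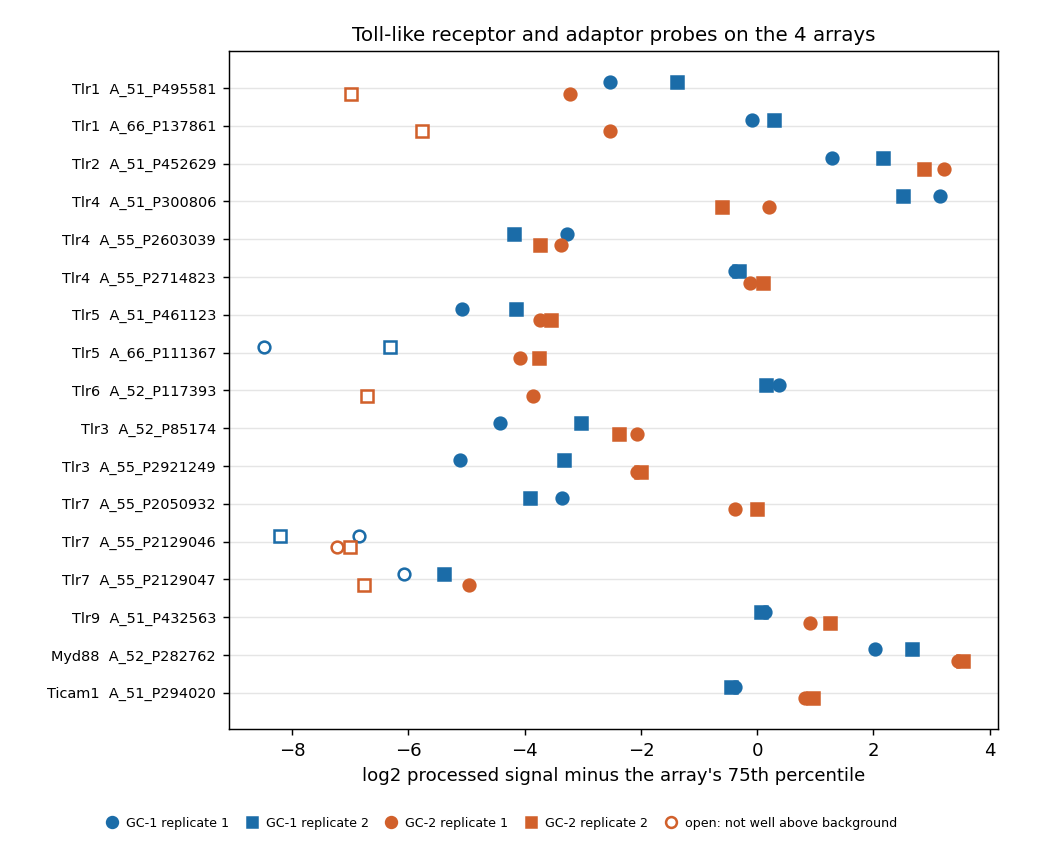
Normalized log2 signal (horizontal axis, processed signal minus the array's 75th percentile) of the 17 member probes on the 4 arrays, with circles for replicate 1, squares for replicate 2 and open symbols where the probe was not well above background. The GC-2 symbols of the Tlr1 and Tlr6 probes and of Tlr4 A_51_P300806 lie left of the GC-1 symbols, and those of Tlr7 A_55_P2050932 lie right of them.

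Among the surface receptors, Tlr6 and Tlr1 fell in GC-2, by amounts that rest in part on GC-2 replicate 2, which was not well above background. On the main scale their fitted falls exceeded that of Tlr4 A_51_P300806, and with normexp background correction they did not (-2.48 and -1.95 against -2.81). Tlr6 forms a heterodimer with Tlr2 that recognises diacylated lipopeptides. Its probe had a processed signal of 863 and 772 in GC-1 and of 28.9 and 1.91 in GC-2. Both GC-2 arrays were far below GC-1, and only replicate 1 of GC-2 was well above background. The probe thus entered the test only through GC-1, the line where it was higher, so its call adds no support. Tlr6 fell by 5.54 ± 0.89 log2 in GC-2 (SE, n = 2 arrays per line; 95% interval -7.78 to -3.31; limma's adjusted p = 0.00577). Without GC-1 replicate 1 the adjusted p was 0.0548.

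Tlr1 is the other partner of Tlr2 and takes part in recognising triacylated lipopeptides. Tlr1 A_66_P137861 had signals of 625 and 849.8 in GC-1 and 71.7 and 3.70 in GC-2. It fell by 4.25 ± 1.00 log2 (adjusted p = 0.0198), but the call was lost when either GC-1 array was left out (adjusted p = 0.101 without replicate 1 and 0.114 without replicate 2). The second Tlr1 probe, A_51_P495581, starts 0.12 kb away. Its signals were 115 and 267 in GC-1 and 44.9 and 1.58 in GC-2, a change of -3.14 ± 1.21 (95% interval -6.17 to -0.11) that was not called (adjusted p = 0.0842).

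The GC-2 replicates differed widely on these 3 probes. On the normalized scale replicate 1 exceeded replicate 2 by 3.77 and 3.22 log2 on the Tlr1 probes and by 2.86 on the Tlr6 probe. Only 0.0273%, 0.0763% and 0.172% of tested probes had a larger gap between the GC-2 arrays. Replicate 2 was not well above background on any of the 3, so its values say only that the transcripts were dim there. In an alternative chosen after the data were seen, values below the lowest signal above background of their array were raised to it. The changes were then -4.54 for Tlr6 (adjusted p = 0.000267), -3.72 for Tlr1 A_66_P137861 (0.00536) and -2.0 for Tlr1 A_51_P495581 (0.0322). With normexp background correction they were -2.48, -1.95 and -0.42. The last of these was not called (adjusted p = 0.345). All 3 probes entered the test only through GC-1, the line where they were higher, so their adjusted p values add no support.

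Tlr2, the partner of both, moved the other way. Its signals were 1626 and 3099.5 in GC-1 and 3836 and 1453 in GC-2, and on the normalized scale the GC-1 values of 1.29 and 2.16 lay below the GC-2 values of 3.21 and 2.86. Tlr2 rose by 1.31 ± 0.36 log2 (95% interval 0.40 to 2.21; adjusted p = 0.0322), a change of -0.55 when the arrays are scaled to the E1A probes. The call was lost without GC-1 replicate 1 (adjusted p = 0.114), without GC-2 replicate 1 (0.112) and without GC-2 replicate 2 (0.0665). It was also lost with median centring (0.99, adjusted p = 0.0692) and with no filter on dim probes (0.0653).

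Tlr4, the receptor for lipopolysaccharide, gave different results on its 3 probes. A_51_P300806, near the end of the transcript, had signals of 5906 and 3962 in GC-1 and 481 and 131 in GC-2. It was 8.18-fold lower in GC-2, a fall by 3.03 ± 0.38 log2 (95% interval -3.99 to -2.07; adjusted p = 0.00276). This call was kept under the 13 alternatives run on single probes, over which the change ranged from -4.89 to -2.62. The authors' deposited value for the gene, which is not this probe's alone, was not called, as given below. The probe near the start of the transcript, A_55_P2603039, lies 3.38 kb away and was dim. Its signals were 69.2 and 38.1 in GC-1 and 40.0 and 15.1 in GC-2, and its normalized values overlapped between the lines, with a change of 0.17 ± 0.37 (95% interval -0.76 to 1.1; adjusted p = 0.730). A_55_P2714823 lies 87.47 kb beyond the first and belongs to another transcript under the same gene name. Its signals were 508 and 558 in GC-1 and 383 and 214 in GC-2, a change of 0.34 ± 0.23 (95% interval -0.25 to 0.93; adjusted p = 0.283). Scaled to the E1A probes, both of these probes were called lower too (-1.69 and -1.52). In the authors' deposited table, which holds 1 value per gene, the Tlr4 values were 0.10 and -0.39 in GC-1 and -0.79 and -1.27 in GC-2, and limma on those values gave -0.88 (adjusted p = 0.140).

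Tlr5, the flagellin receptor, was dim in both lines. Tlr5 A_66_P111367 had signals of 1.86 and 8.69 in GC-1, neither well above background, and of 24.5 and 14.9 in GC-2, both above it. GC-1 therefore has only a bound, and by this probe GC-2 exceeded GC-1 at least 4.40-fold. Limma's adjusted p of 0.0116 belongs to a fitted change of 3.48 log2 on these GC-1 values, and the bound itself was not tested. The probe entered the test only through GC-2, the line where it was higher, so its call adds no support. The bound was 2.63-fold with normexp background correction and 1.21-fold when scaled to the E1A probes. The bound sets the GC-2 mean against the mean, over the GC-1 arrays, of the lowest signal above background or the probe's own if higher. The second probe, A_51_P461123, had signals of 19.7 and 39.0 in GC-1 and 31.3 and 17.1 in GC-2. Its change of 0.98 ± 0.36 was not called (95% interval 0.07 to 1.89; adjusted p = 0.0762), and was -0.88 when scaled to the E1A probes.

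**Figure D2:**
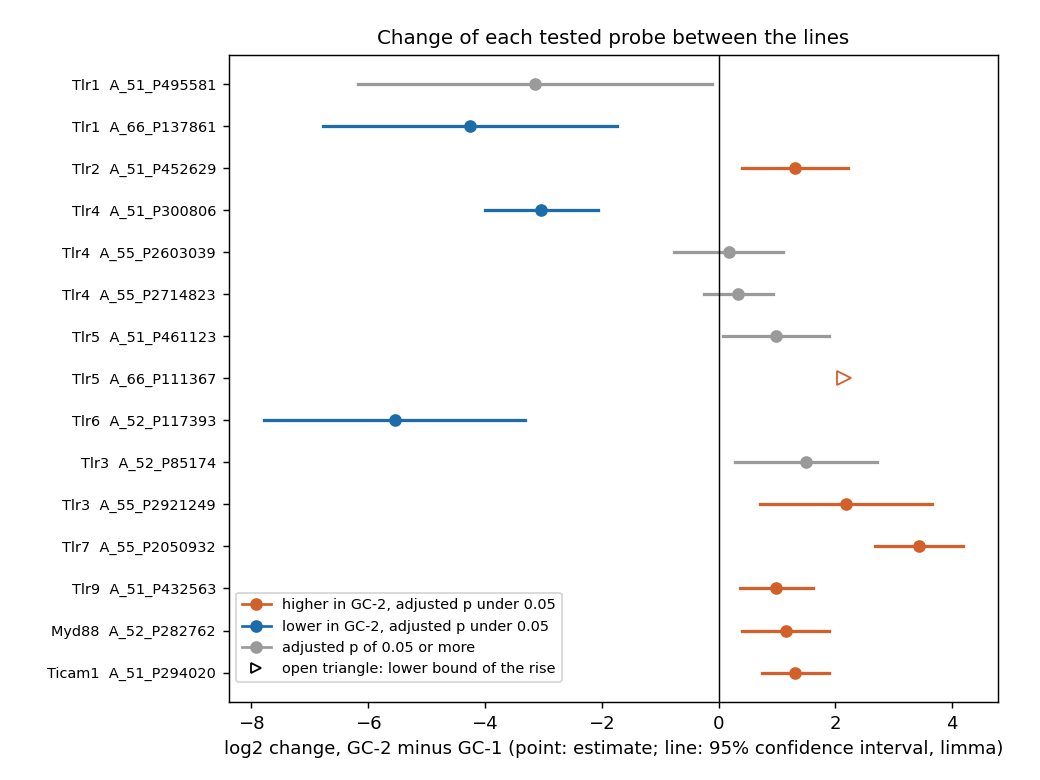
Change of the 15 tested member probes (GC-2 minus GC-1, log2, horizontal axis) with 95% confidence intervals from limma, coloured by direction where the adjusted p was under 0.05. Tlr6 at -5.54, Tlr1 A_66_P137861 at -4.25 and Tlr4 A_51_P300806 at -3.03 lie left of 0 and 7 probes are called right of it, of which those of Tlr2, Tlr9, Myd88 and Ticam1 turn below 0 when the arrays are scaled to the E1A spike-in probes. The open triangle puts Tlr5 A_66_P111367, not above background in GC-1, at its lower bound of 2.14.

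The 3 endosomal receptors each had a probe that was higher in GC-2. Tlr7, a sensor of single-stranded RNA, had the lowest adjusted p of all member probes. Tlr7 A_55_P2050932 had signals of 64.8 and 46.2 in GC-1 and 318 and 198.8 in GC-2, with both GC-2 arrays above both GC-1 arrays even before scaling. GC-2 exceeded GC-1 10.8-fold, a rise of 3.44 ± 0.30 log2 (95% interval 2.68 to 4.19; adjusted p = 0.000901). The call was kept under the 13 alternatives run on single probes, with changes from 1.58 when scaled to the E1A probes to 3.71. The authors' deposited table has 1 value per gene, not per probe. Limma on its Tlr7 values gave 2.62 without a call (adjusted p = 0.115), which is no repeat of the test on this probe. The other 2 Tlr7 probes could not be tested. A_55_P2129046, toward the start of the transcript, was above background on no array, with signals of 5.80 and 2.34 in GC-1 and 2.78 and 1.57 in GC-2. A_55_P2129047, only 0.28 kb from the called probe, was above background on 1 array of each line, with signals of 9.87 and 16.5 in GC-1 and 13.4 and 1.84 in GC-2. The rise of Tlr7 thus rests on 1 of its 3 probes.

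Tlr3, a sensor of double-stranded RNA, was dim and varied between the GC-1 arrays. Tlr3 A_55_P2921249, near the start of the transcript, had signals of 19.3 and 69.5 in GC-1 and 99.4 and 50.2 in GC-2. It rose by 2.18 ± 0.59 log2 (95% interval 0.72 to 3.65; adjusted p = 0.0295), or 0.32 when scaled to the E1A probes (adjusted p = 0.573). The call was lost without GC-2 replicate 1 (adjusted p = 0.0781) and without GC-2 replicate 2 (0.0929). Tlr3 A_52_P85174, near the transcript's end, had signals of 31.2 and 85.2 in GC-1 and 99.7 and 38.3 in GC-2. Its change of 1.50 ± 0.49 fell short of the threshold (95% interval 0.28 to 2.71; adjusted p = 0.0521) and was -0.36 when scaled to the E1A probes. The GC-1 replicates differed by 1.79 and 1.39 log2 on these probes, wider than on all but 1.06% and 2.73% of tested probes.

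Tlr9, which recognises unmethylated CpG DNA, had the smallest rise among the called member probes. Its signals were 729 and 725 in GC-1 and 784 and 478 in GC-2, and on the normalized scale the GC-2 values of 0.91 and 1.26 lay above the GC-1 values of 0.13 and 0.07. It rose by 0.99 ± 0.25 log2 (95% interval 0.37 to 1.61; adjusted p = 0.0239), and was lower in GC-2, by a change of -0.87 (adjusted p = 0.0282), when scaled to the E1A probes. The rise was not called without GC-1 replicate 1 (adjusted p = 0.0841), without GC-1 replicate 2 (0.0902) or without GC-2 replicate 2 (0.106), nor with median centring (0.0705) or no filter on dim probes (0.0691).

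Both adaptors were above background on every array and higher in GC-2 on the main scale. Myd88, the adaptor of all members here except Tlr3, had signals of 2726 and 4403 in GC-1 and 4565 and 2336 in GC-2. It rose by 1.15 ± 0.30 log2 (95% interval 0.41 to 1.89; adjusted p = 0.0259), a change of -0.71 when scaled to the E1A probes. The call was lost without GC-1 replicate 1 (adjusted p = 0.0959), without GC-2 replicate 1 (0.0702) and without GC-2 replicate 2 (0.0935), and with median centring (0.0588) or no filter on dim probes (0.0623). Ticam1, which encodes TRIF, the adaptor of Tlr3 and of a branch of Tlr4 signalling, had signals of 514 and 507 in GC-1 and 739 and 391 in GC-2. It rose by 1.31 ± 0.23 log2 (95% interval 0.74 to 1.89; adjusted p = 0.00746), a change of -0.55 when scaled to the E1A probes. The Ticam1 call was kept without any single array.

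**Figure D3:**
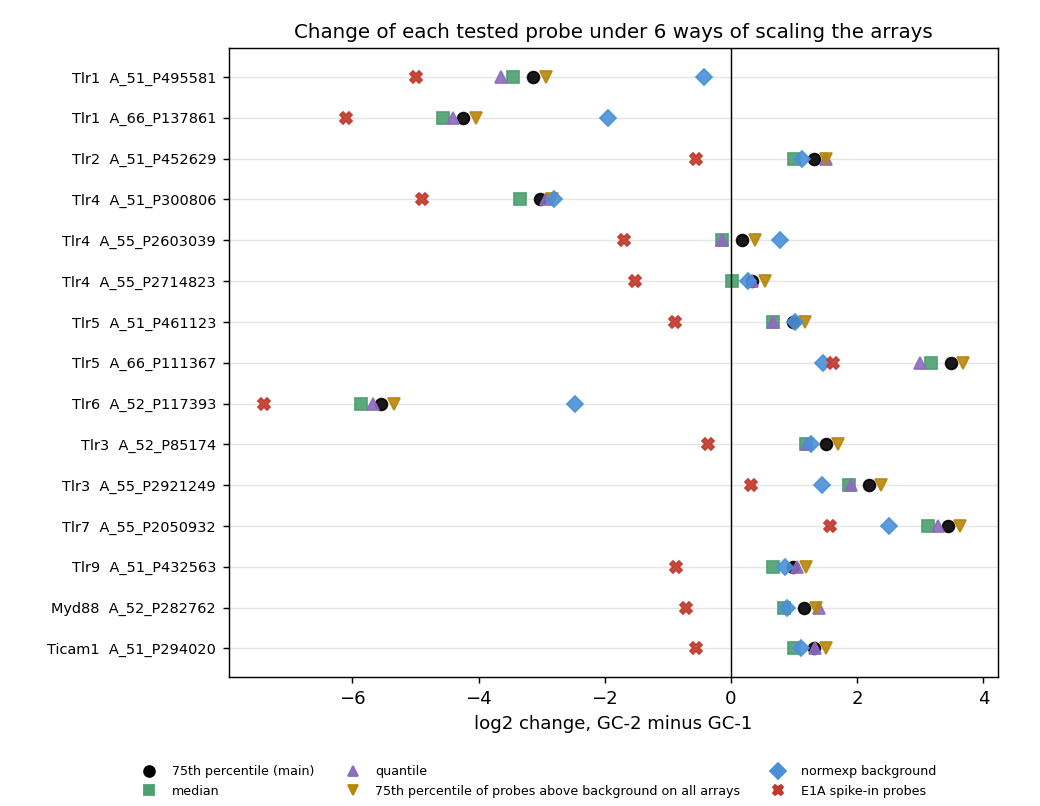
Change of the 15 tested member probes (GC-2 minus GC-1, log2, horizontal axis) under 6 ways of scaling or background correction, each with its own symbol. The red crosses for the E1A spike-in probes lie 1.86 left of the main values, which puts Tlr2, Tlr9, Myd88 and Ticam1 below 0 and leaves Tlr7 A_55_P2050932 at 1.58, while Tlr1 A_66_P137861, Tlr6 and Tlr4 A_51_P300806 stay below 0 on every scale. Tlr5 A_66_P111367, not above background in GC-1, is drawn at its fitted values, which are no bound.

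Beyond the members, 101 genes of the receptors' pathway were looked up in 8 lists, each gene by its brightest tested probe and with the p adjusted over all probes as above. Of 90 tested, 19 were higher in GC-2 (18.3% of all 17438 tested genes were) and 17 lower (25.7% of all), 36 in either direction (44.1% of all genes). Their median change was 0.09, against -0.13 for all genes. The same shares of all tested genes, 18.3% higher and 25.7% lower, apply to the counts of each pathway and marker list below. Without GC-1 replicate 1 the 36 calls became 21 and without GC-2 replicate 2 they became 18, and 16 of the 36 were made whichever array was left out. Of the 19 higher genes, 6 stayed above 0 when scaled to the E1A probes: Il1rl1, Nod2, Il6, Cxcl1, Lcn2 and Zbp1. The other 13 turned below 0 there, and the lower genes stayed below 0. In all, limma called 2 pathway genes higher and 71 lower on the E1A scale, and 28 lower with median centring.

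Of the other Toll-like receptors, Tlr8 and Tlr13 were tested and neither passed limma's threshold, or an unadjusted p under 0.05 (0 of 2 by either). Tlr8, which like Tlr7 is an endosomal receptor, had signals of 12.5 and 14.2 in GC-1 and 11.3 and 4.10 in GC-2, a change of 0.27 ± 0.26 (adjusted p = 0.436). Tlr13, which recognises bacterial ribosomal RNA, had signals of 150.4 and 159.7 in GC-1 and 83.3 and 51.0 in GC-2, a change of -0.01 ± 0.25 (adjusted p = 0.970). Tlr11 and Tlr12 were not well above background on both arrays of either line.

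Among 9 tested co-factors and chaperones of the receptors, 3 were higher and 2 lower in GC-2, with a median change of 0.10. On the E1A scale limma called 0 higher (also 0 at an unadjusted p under 0.05) and 6 lower. Lbp, which transfers lipopolysaccharide to Cd14, was one of the lower ones. Its signals were 1164 and 1511 in GC-1 and 3.41 and 5.24 in GC-2, where neither array was well above background, so GC-1 exceeded GC-2 at least 68.8-fold. Cd14 itself did not pass (0.10 ± 0.27; adjusted p = 0.791), with signals of 4734 and 3977 in GC-1 and 3284 and 1185 in GC-2. Ly96, the MD-2 subunit that binds lipopolysaccharide for Tlr4, rose by 1.15 ± 0.30 (adjusted p = 0.0285; -0.71 when scaled to the E1A probes). Cd180, a receptor homolog without a TIR domain, rose by 1.32 ± 0.29 (-0.54 on the E1A scale), and the ubiquitin ligase Rnf170 rose by 1.69 ± 0.30 (-0.17 on the E1A scale). Unc93b1, which escorts the endosomal receptors from the endoplasmic reticulum, fell by 1.00 ± 0.30 (adjusted p = 0.0395). Ly96 lost its call without 3 of the 4 arrays, Cd180 without 2 and Unc93b1 without each (adjusted p up to 0.129, 0.0772 and 0.158), while Lbp and Rnf170 kept theirs.

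Of the other TIR adaptors, Sarm1, which restrains signalling through Ticam1, rose by 1.55 ± 0.23 (adjusted p = 0.00432; -0.31 when scaled to the E1A probes) and kept its call without each array. Tirap, which bridges Myd88 to Tlr2 and Tlr4, changed by 0.61 ± 0.26 without passing (adjusted p = 0.110). Ticam2, the bridge between Ticam1 and Tlr4, and Pik3ap1 were not well above background on both arrays of either line.

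All 21 kinases and ubiquitin ligases were above background on all arrays in their brightest tested probe, with a median change of -0.14. By limma 0 were higher (2 at an unadjusted p under 0.05) and 3 lower, which became 8 lower with median centring and all 21 on the E1A scale. The 3 were Tab1, a subunit of the TAK1 complex (-1.44 ± 0.23), the IKK subunit gene Chuk (-1.21 ± 0.29) and the ubiquitin ligase gene Peli1 (-1.11 ± 0.27). Chuk and Peli1 lost their calls without 3 of the 4 arrays (adjusted p up to 0.0823 and 0.0905). Irak4 and Traf6, which act directly after Myd88, changed by 0.20 ± 0.26 (adjusted p = 0.571) and -0.88 ± 0.29 (0.0572). Among 13 transcription factors the median change was -0.43, with 0 higher (2 at an unadjusted p under 0.05) and 2 lower, which became 6 with median centring and all 13 on the E1A scale. The 2 were Cebpb (-1.48 ± 0.34) and Atf3 (-1.04 ± 0.25), and both lost their calls without GC-1 replicate 1 and without GC-2 replicate 2, Atf3 also without GC-2 replicate 1 (adjusted p up to 0.0835 for Cebpb and 0.0912 for Atf3).

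Of 14 negative regulators 2 were higher and 5 lower, with a median change of -0.31 (1 higher and 13 lower on the E1A scale). Il1rl1, which encodes the receptor of interleukin 33 and dampens signalling through Myd88, had signals of 40.9 and 30.2 in GC-1 and 1731 and 1176 in GC-2. The GC-2 arrays lay far above GC-1, and it rose by 6.58 ± 0.31 (adjusted p = 0.000189), or 4.72 when scaled to the E1A probes. Nlrx1 rose by 0.73 ± 0.23 (adjusted p = 0.0481; -1.13 on the E1A scale), a call lost without each of the 4 arrays. The inhibitor of NF-kB gene Nfkbie fell by 1.89 ± 0.28, Tank by 1.58 ± 0.24 and Tnip1 by 1.51 ± 0.23, and these 3 kept their calls without each array. Nfkbia, another inhibitor of NF-kB and a target of it, changed by 0.49 ± 0.23 without passing (adjusted p = 0.137).

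Of 15 tested inflammatory target genes, 7 were higher on the main scale and 2 lower, against 18.3% and 25.7% of all tested genes. Their median change was 1.13, and the list was chosen with earlier results of these data known. Scaled to the E1A probes, limma called 0 of them higher (also 0 at an unadjusted p under 0.05) and 6 lower. Il6 had signals of 202 and 480.0 in GC-1 and 1413 and 387 in GC-2 and rose by 2.48 ± 0.49 (adjusted p = 0.0109; 0.62 on the E1A scale). The neutrophil chemokine gene Cxcl1 rose by 2.32 ± 0.37 (0.46 on the E1A scale) and the siderophore-binding lipocalin gene Lcn2 by 2.12 ± 0.31 (0.26). Lif, a cytokine of the interleukin 6 family, fell by 2.47 ± 0.41, and the prostaglandin synthase gene Ptgs2 fell by 0.96 ± 0.28. Tnf changed by -0.24 ± 0.28 (adjusted p = 0.525) and Ifnb1 by -2.10 ± 0.92 (0.117). The 7 higher calls became 3 without GC-1 replicate 1 and 3 without GC-2 replicate 2. Il6 lost its call without GC-1 replicate 1 (adjusted p = 0.0534), and Ptgs2 lost its call without 3 of the 4 arrays (up to 0.131).

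Of 14 cytosolic sensors of nucleic acids and peptidoglycan, 6 were higher and 3 lower, against 18.3% and 25.7% of all tested genes. These sensors detect microbes independently of the Toll-like receptors, and their median change was 0.43. On the E1A scale 1 was higher and 9 were lower. Nod2, a sensor of muramyl dipeptide, rose by 2.97 ± 0.35 (adjusted p = 0.00226; 1.11 when scaled to the E1A probes). The nucleic acid sensor gene Zbp1 rose by 2.04 ± 0.39 (0.17 on the E1A scale) and Cgas, named Mb21d1 in older annotation, by 1.70 ± 0.25 (-0.16). Aim2, an inflammasome sensor of DNA, had signals of 1461 and 1618 in GC-1 and 6.68 and 2.34 in GC-2, neither GC-2 array well above background, and GC-1 exceeded GC-2 at least 79.8-fold. The double-stranded RNA kinase gene Eif2ak2 fell by 1.60 ± 0.23 and Mavs, the adaptor of cytosolic RNA sensors, fell by 1.03 ± 0.22, a call that Mavs lost without each array (adjusted p up to 0.0621). The 6 higher calls became 3 without GC-2 replicate 2.

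**Figure D4:**
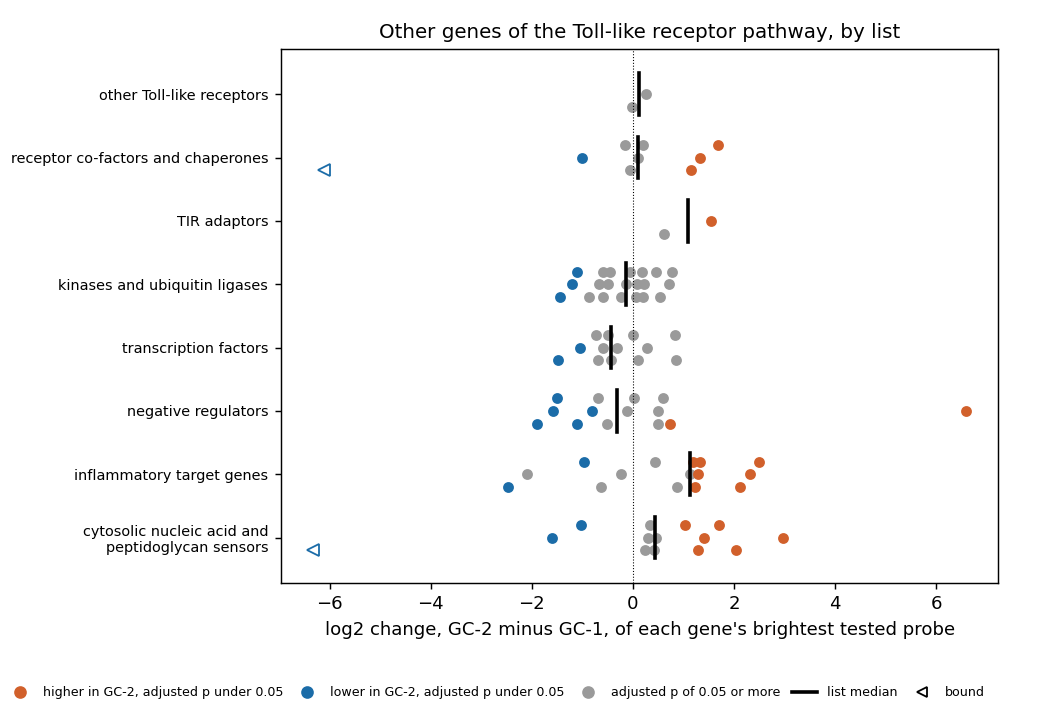
Change of each tested gene of the 8 pathway lists (GC-2 minus GC-1, log2, horizontal axis, brightest tested probe), coloured by direction where limma's adjusted p was under 0.05, with a black bar at each list's median. Il1rl1 lies at 6.58, and the open triangles put Lbp and Aim2, not above background in GC-2, at their bounds, 6.10 and 6.32 log2 below 0 (68.8-fold and 79.8-fold). Of the 19 orange points 13 turn below 0 when the arrays are scaled to the E1A spike-in probes.

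Markers of other cell types were read beside the members, since macrophages express most Toll-like receptors and Sertoli cells several. The samples are cultured lines and not tissue, and in bulk RNA, fewer cells of a type and less RNA per cell cannot be told apart. Of 16 macrophage and leukocyte genes 9 were tested, 3 higher and 3 lower, with a median change of -0.35. Their summed signal, divided by the array's 75th percentile, was 28.6 and 18.0 in GC-1 and 8.43 and 10.3 in GC-2. Most of the GC-1 sum came from Cd68, with signals of 15209 and 7978 in GC-1 and 249 and 115 in GC-2 (-4.78 ± 0.37). Ptprc, the pan-leukocyte gene, had signals of 2349.7 and 2986 in GC-1 and 1185 and 653 in GC-2 (-0.35 ± 0.25; adjusted p = 0.289), and Itgam rose by 1.36 ± 0.28 (-0.50 on the E1A scale). Adgre1, Fcgr1, Cd163, Mrc1, Tyrobp, Spi1 and Laptm5 were not well above background on both arrays of either line. The relation of these marker genes to the changes of the receptors was not tested.

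Of 12 Sertoli cell genes 10 were tested, 3 higher and 5 lower, and their summed signal over the 75th percentile was 376 and 384 in GC-1 and 7.77 and 8.26 in GC-2. That sum moved with the falls of Tlr1, Tlr4 and Tlr6, and was carried by Krt18 (-11.51 ± 0.24) and Wt1 (-6.29 ± 0.26). Dhh was lower as well (-5.04 ± 0.57), while Amh and Cldn11 were not well above background on both arrays of either line. Of 11 peritubular and fibroblast genes 9 were tested, 2 higher and 2 lower, with sums of 292 and 389 in GC-1 and 196.1 and 163.6 in GC-2, led by Col1a1 (-1.75 ± 0.31), Col1a2 (0.42 ± 0.34, not called) and Dcn (-6.05 ± 0.37). Of 7 endothelial genes 4 were tested and 2 were higher, with sums of 0.476 and 0.508 in GC-1 and 8.17 and 6.38 in GC-2, led by Eng (5.88 ± 0.35). Of the germ cell genes 5 were tested and 1 was higher, with sums of 0.410 and 0.322 in GC-1 and 1.05 and 1.43 in GC-2, led by Gfra1 (4.52 ± 0.35). How far any of these cell programs carries the receptors was not tested.

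Tlr1 and Tlr6 are neighbours on chromosome 5, their probes 28.25 kb apart, and the genes beside them were looked up after the falls were known. In the order of protein-coding genes in RefSeq, Gm46913, Gm38457 and Klf3 precede them and Fam114a1, Tmem156 and Klhl5 follow. Gm38457 fell by 3.65 ± 0.31 (adjusted p = 0.000864), with signals of 3358 and 4784 in GC-1 and 238 and 77.0 in GC-2. Klf3, a transcription factor gene, fell by 1.74 ± 0.28 (adjusted p = 0.00564), and Fam114a1 fell by 1.11 ± 0.32 (0.0374), the latter not called without 3 of the 4 arrays (up to 0.161). Klhl5 changed by -0.79 ± 0.41 (0.165), and Gm46913 and Tmem156 were not measured here. Apart from Tlr1 and Tlr6, whose falls prompted the lookup, 4 genes of this stretch were tested, of which 3 were lower in GC-2. Of all tested genes 25.7% were lower. Whether this stretch differs between the lines as a whole was not tested.

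**Figure D5:**
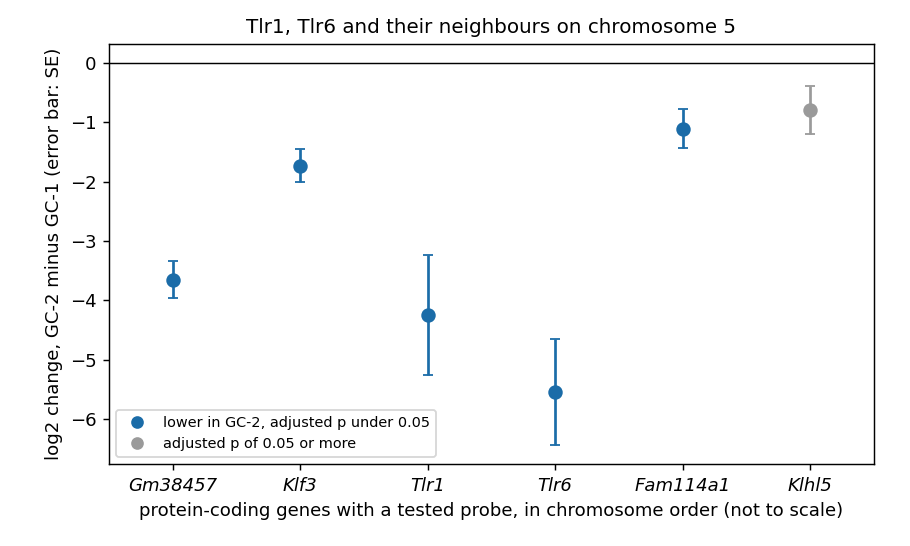
Change (GC-2 minus GC-1, log2, vertical axis; bars show the SE) of the 6 genes with a tested probe around Tlr1 and Tlr6, in chromosome order and not to scale. All 6 lie below 0, from -0.79 for Klhl5, which was not called, to -5.54 for Tlr6.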

How the data were processed

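Per the file headers, the arrays were read with Agilent Feature Extraction 11.5.1.1, which wrote for each spot a mean intensity, a local background intensity and a processed intensity (background-subtracted and spatially detrended, with surrogates for spots not above background), deposited without normalization between arrays. The authors' deposited series table holds log2 values, 1 per gene name. The rule for genes with more than 1 probe is not stated in the sources used here.

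Lines and replicate numbers came from the sample titles. Log2 processed intensities were averaged over a probe's spots without irregular spots (92 to 224 per array; no spot was saturated), and each array's 75th percentile over 56605 probes was subtracted. Probes that both arrays of 1 line or more showed well above background, with a value on all 4, were tested (R 4.3.3, limma 3.58.1, functions lmFit and eBayes, two-sided, no replicate block, 2 residual degrees of freedom), with Benjamini-Hochberg adjustment over 36692 probes. The step was tested on simulated data. Where neither array of a line showed a probe above background, only a bound is given. List genes were named through the RefSeq gene table of GRCm38.p6, used for names and neighbours alone. Promoters came from the RefSeq table of the same assembly. The sequence of 1 Tlr5 probe is not reported here.

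Every member probe is named. From each pathway list up to 3 called genes with the largest rise and 3 with the largest fall are named, and from each marker list up to 3 measured genes with the highest mean signal. Some further genes (Cd14, Tirap, Irak4, Traf6, Nfkbia, Tnf, Ifnb1 and genes not above background) were named after their values were seen. Members and lists were chosen with earlier results of these data known. Alternatives were normexp (offset 50), median, quantile and E1A scaling, other filters, the authors' table, a replicate block, leaving out each array, and a floor added after the data were seen.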

Additional observations from a re-analysis of the deposited data

How the results depend on the processing

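With the arrays scaled to the E1A spike-in probes, the changes of Tlr2 (-0.55), Tlr9 (-0.87), Myd88 (-0.71) and Ticam1 (-0.55) reversed, which follows from the 1.86 log2 that this scaling takes off every change. Calls over all probes then went from 16780 to 30548 (higher from 8845 to 1925, lower from 7935 to 28623), higher member probes from 7 to 2 and lower from 3 to 7, and pathway genes from 36 to 73 (higher from 19 to 2, lower from 17 to 71). With normexp, 5037 probes were lower in all and the Tlr5 bound was 2.63-fold instead of 4.40-fold (1.21-fold on the E1A scale, added after the data were seen). With median centring 4 member probes were higher and 28 pathway genes lower. With no filter on dim probes these were 4 and 9. With only probes above background on all 4 arrays, 1 member probe was lower, since Tlr1 and Tlr6 leave the test. On the authors' log2 values 21 pathway genes were called (12 higher, 9 lower), and of the members Tlr6 and Ticam1. Those have 1 value per gene, so probe counts were not run on them. For the other changes the cause was not tested.

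Leaving out each array in turn gave 10683 to 13569 probes called (higher 5755 to 7401, lower 4928 to 6168), 5 to 10 member probes (higher 3 to 8, lower 1 to 4) and 18 to 26 pathway genes (higher 9 to 15, lower 9 to 13). The line left with 1 array was then assumed to vary like the other. The replicate numbers are not known to pair the samples (r = 0.1236 between same-numbered deviations, over 2 pairs). With a replicate block 12 member probes (9 higher, 3 lower), 38 pathway genes and 17332 probes were called, and of the member probes Tlr3 A_52_P85174 (adjusted p = 0.0344) and Tlr5 A_51_P461123 (0.0410) were gained and none lost. With the floor, 12 member probes were called (8 higher, 4 lower). The Tlr5 bound was not computed with the flag for positive and significant signal, since a GC-1 array passes that flag. Signal over background limits Tlr1, Tlr5, Tlr6 and 2 Tlr7 probes.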

Other observations

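The protein-coding neighbours of the 8 members other than Tlr1 and Tlr6, up to 3 on each side, were looked up in the same way after the members' changes were known. Of 48 genes listed 35 were tested, of which 10 were higher and 9 lower in GC-2, against 18.3% and 25.7% of all tested genes. Around Tlr9, which rose by 0.99 ± 0.25 and changed by -0.87 on the E1A scale, 4 of 6 were higher: Twf2 (3.30 ± 0.25), Alas1 (1.61 ± 0.24), Poc1a (0.77 ± 0.23) and Dusp7 (1.88 ± 0.43). The other 2, Wdr82 (-0.18 ± 0.24) and Ppm1m (0.31 ± 0.25), were not called. Alas1 and Poc1a turned below 0 on the E1A scale (-0.25 and -1.09) and Dusp7 lay near 0 (0.02). Poc1a lost its call without each array (limma's adjusted p up to 0.124) and Dusp7 without either GC-2 array (up to 0.0611). Around the other members both directions occurred, except around Tlr5 (0 higher and 2 lower of 3 tested), and some of the changes were large. Sfrp2, beside Tlr2, encodes a secreted Wnt modulator and rose by 10.13 ± 0.67. Cyp4v3, near Tlr3, was above background on no GC-1 array, and GC-2 exceeded GC-1 at least 58.6-fold. Susd4, beside Tlr5, was above background on no GC-2 array and GC-1 exceeded GC-2 at least 30.4-fold. Acvr2b, near Myd88, fell by 3.74 ± 0.41, and Tmsb4x, near Tlr7, which encodes an actin-binding thymosin, fell by 2.22 ± 0.25.

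In the authors' deposited table the Tlr7 values were -3.09 and -4.38 in GC-1 and -2.37 and 0.13 in GC-2, and limma on them did not reach the threshold (adjusted p = 0.115). The lower value of each line fell on the array where the dim probe A_55_P2129047 was well above background. These arrays were GC-1 replicate 2 and GC-2 replicate 1. How the probes enter the gene's value was not tested. The Tlr3 values in the authors' deposited table were -4.49 and -2.90 in GC-1 and -1.76 and -2.05 in GC-2 (limma's adjusted p = 0.0907). The scale and centring of that table are those of log2 processed signal minus a constant per array for the rows named by probe. For genes with several probes the rule is not stated in the sources used here.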
